A study of Mus musculus with 2 samples.

Results

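The miRNAs described here are regulators of cholesterol transport and lipid synthesis: miR-33, miR-122, miR-128 and the complete seed family of miR-148a, miR-148b and miR-152. They were chosen by name, as the 7 miRNA precursors (hairpins) mmu-mir-33, mmu-mir-122, mmu-mir-148a, mmu-mir-148b, mmu-mir-152, mmu-mir-128-1 and mmu-mir-128-2, of 1187 precursors counted. Small RNA was sequenced from hindlimb muscle made ischemic by surgical removal of the femoral artery and taken 1 day after surgery. The hypercholesterolemic library (HC) came from Apoe-/- mice, which the series' design text gives as fed a high-fat diet, and the normocholesterolemic control library (NC) came from healthy C57Bl/6 mice with a control genotype. Apoe encodes apolipoprotein E, a ligand through which the liver clears lipoprotein remnants. Genotype and diet cannot be told apart between the libraries. The comparison asks which miRNAs of ischemic muscle differ with hypercholesterolemia. The labels do not state age, sex, the diet of the control mice or the number of animals behind a library. Both libraries were ischemic, so what ischemia itself changes was not measured. Each group held 1 library, so no spread between animals is known, no test was run, and every interval below is a 95% interval of counting error alone.

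A miRNA guides the silencing complex to messenger RNAs by pairing of its seed, bases 2 to 8 from the 5′ end, and lowers their stability and translation. miR-33 lies inside the gene of SREBP2, the transcription factor that switches on cholesterol synthesis and uptake, and represses the cholesterol exporter Abca1 together with genes of fatty acid oxidation. miR-122 is the dominant miRNA of the liver, where it sustains cholesterol synthesis. miR-148a and miR-128-1 were found to repress Abca1 and other genes of lipoprotein handling, mainly in liver cells. Most of this work concerns liver and macrophages, and skeletal muscle is a site of lipid use more than of lipoprotein handling.

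The mature products are shown first, because the counts can be separated only as far as the sequences differ. Of the 7 precursors, 6 matched a RefSeq hairpin (GRCm38.p6) by coordinates. The arms known as the main products are printed 5′ to 3′ with the seed in capitals:
miR-33-5p: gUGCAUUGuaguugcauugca
miR-148a-3p: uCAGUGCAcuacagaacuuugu
miR-148b-3p: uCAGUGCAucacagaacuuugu
miR-152-3p: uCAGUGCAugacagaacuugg
miR-128-3p: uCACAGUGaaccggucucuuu

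miR-148a-3p, miR-148b-3p and miR-152-3p carry the same seed and differ only behind it. Counted from 1 at the 5′ end, miR-148b-3p differs from miR-148a-3p by C9U and U10C, with 20 of 22 positions identical. miR-152-3p differs from miR-148a-3p by C9U, U10G and U20G, with 18 of 21 compared positions identical. Among the other precursors matched to RefSeq, none shared all of bases 2 to 8 with a mature product of these miRNAs, while miR-1960 shared bases 2 to 7 with the miR-148 seed, miR-409-3p with miR-33-3p, and miR-665-5p with the 5p arms of miR-128. For the miR-1960 precursor the count was 23 in HC and 11 in NC. Seeds of other precursors that overlap at a shifted position were not searched for. From the fixed lists, only miR-27 is given: its sequences hold the miR-128-3p seed, shifted by 1 base. The miR-27a and miR-27b 3p arms are shown for that overlap, again with bases 2 to 8 in capitals:
miR-27a-3p: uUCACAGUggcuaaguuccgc
miR-27b-3p: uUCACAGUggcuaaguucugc

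miR-128-3p is made from both miR-128 hairpins, so its reads cannot be assigned to either. The hairpins are shown with their mature arms in capitals, the 5p arm first:
miR-128-1 (chr1:128202361-128202430, plus strand): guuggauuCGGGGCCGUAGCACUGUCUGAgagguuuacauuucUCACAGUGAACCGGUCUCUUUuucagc
miR-128-2 (chr9:112118636-112118711, minus strand): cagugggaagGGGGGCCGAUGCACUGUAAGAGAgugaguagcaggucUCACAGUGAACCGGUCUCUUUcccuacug

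The precursors lie apart from other miRNAs: none had another listed precursor within 10000 bases (mm10, the build of the deposited coordinates). In GENCODE M21 (GRCm38), 5 of the 7 lie in introns of protein-coding genes on the same strand. Introns are numbered in the longest transcript that spans the precursor, coding where present, and the number can differ in other transcripts. miR-33 (chr15:82198122-82198190) lies in intron 16 of Srebf2, the SREBP2 gene. miR-148b (chr15:103285125-103285221) and miR-152 (chr11:96850393-96850465) each lie in intron 1 of a coatomer subunit gene, Copz1 for miR-148b and Copz2 for miR-152. miR-128-1 lies in intron 19 of R3hdm1 and miR-128-2 in intron 19 of Arpp21, a gene best known from neurons. miR-148a (chr6:51269812-51269910) lies outside any other annotated gene, and miR-122 (chr18:65248861-65248926) overlaps an exon of the long noncoding RNA AC157910.3. Messenger RNAs of the host genes were not measured here.

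The HC library held 31198050 counts over the precursors and the NC library 43848576, of which the 7 members took 169910 counts (0.545%) in HC and 236042 (0.538%) in NC. A read that fits several precursors can be counted at each, so these totals and shares are of counts and not of reads. Levels are given in CPM, counts per 1000000 of the library size after TMM scaling, a method that assumes most miRNAs do not differ. A read covers a whole mature miRNA, so counts were not divided by precursor length, and reads of both arms are summed. Skeletal muscle markers (miR-1, miR-133 and miR-206, with miR-486) were present in both libraries and summed to 277700 CPM in HC and 323290 CPM in NC, with the copies of a miRNA each added as listed, as in all marker sums below. The difference of these sums came mainly from miR-486a, at 141560 CPM in HC and 187310 CPM in NC. The other muscle markers did not share its size or always its direction: miR-133a-1 lay at a log2 fold of -0.0057, and miR-1a-1 at 0.47, with levels of 1826 CPM in HC against 1320 CPM in NC.

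Levels spanned more than 4 orders of magnitude, and the order was the same in both libraries. miR-148a had 4058 CPM in HC and 4637 CPM in NC, which made it the 25th most abundant precursor in both. miR-128-1 followed with 421.1 CPM in HC and 369.5 CPM in NC, and miR-128-2 with 309.6 and 271.4 CPM. miR-148b, at 295.5 CPM in HC and 251.1 CPM in NC, was next to miR-128-2, with 0.955 miR-148b counts per miR-128-2 count in HC and 0.925 in NC. miR-152 had 112.5 CPM in HC and 107.4 CPM in NC. These 5 had a mean of at least 10 CPM and are called compared, as were 222 precursors of the table. Copies, and entries listed at the same or overlapping coordinates, count separately in the 222. miR-33 and miR-122 lay below that limit. Steps between neighbours in this order exceeded counting error, taking the counts of the miR-128 copies as separate reads, and the spread over animals is unknown.

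**Figure D1:**
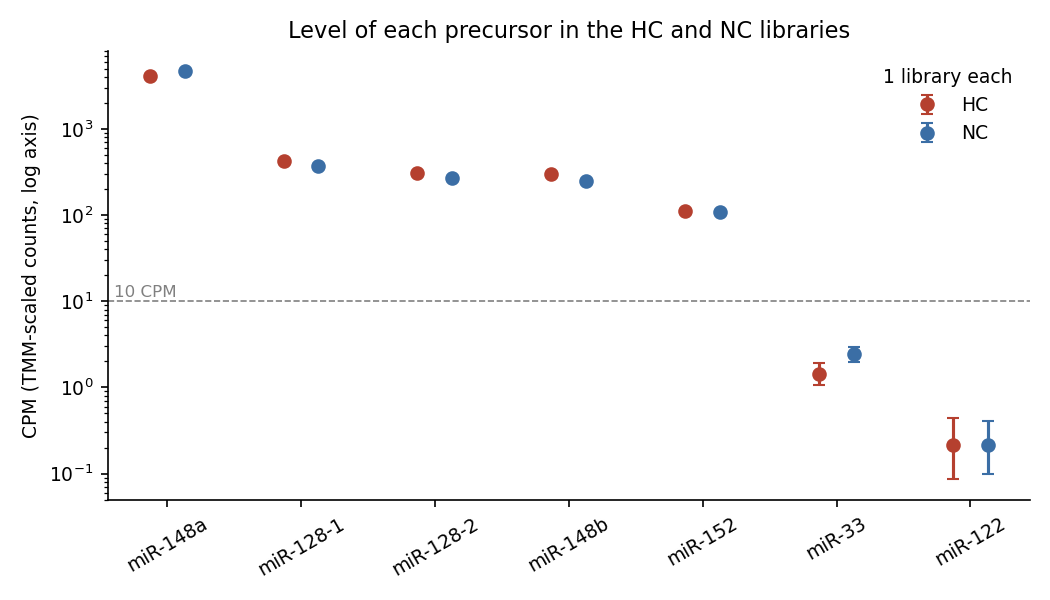
Level of each precursor in CPM (log axis) in the HC library (red, left) and the NC library (blue, right), 1 library each, with 95% counting intervals. miR-148a stands at 4058 CPM in HC and 4637 CPM in NC, miR-33 and miR-122 fall below the dashed line at 10 CPM, and the intervals of miR-122 overlap.

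Within the miR-148 family, miR-148a was lower in HC and miR-148b higher. miR-148a, the most abundant member, had 132637 counts in HC and 194101 in NC. Its log2 fold of HC over NC was -0.19 (-0.20 to -0.18), a fold of 0.875. miR-148b had 9659 counts in HC and 10511 in NC, with a log2 fold of 0.23 (0.19 to 0.27), a fold of 1.18. Both kept their sign under every scaling tried but not their size: with plain totals miR-148a lay at -0.058 and miR-148b at 0.37, and with the authors' denominators at -0.30 and 0.12. miR-152 had 3678 counts in HC and 4494 in NC, with a log2 fold of 0.07 (0.00 to 0.13), and it lay at -0.044 (-0.11 to 0.02) with the authors' denominators. Summed, the family had 4466 CPM in HC and 4996 CPM in NC (log2 fold -0.16, -0.17 to -0.15), so its total followed miR-148a. The median of the 3 log2 folds was 0.07, opposite in sign to the sum.

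Ratios between miRNAs within a library do not depend on how the libraries are scaled, and all 21 pairs of the 7 precursors were computed. HC held 13.7 miR-148a counts for each miR-148b count (13.5 to 14.0), against 18.5 in NC (18.1 to 18.8). The log2 of the HC ratio over the NC ratio was -0.43 (-0.47 to -0.39). For miR-148a against miR-152 the ratio was 36.1 in HC and 43.2 in NC, a log2 difference of -0.26 (-0.32 to -0.20). For miR-148b against miR-152 it was 2.63 in HC and 2.34 in NC, a log2 difference of 0.17 (0.09 to 0.24). Within the family, HC thus had relatively less miR-148a and relatively more miR-148b than NC. In shares of the family's counts, the fraction of miR-148a was 90.9% in HC, with an exact 90.7 to 91.0%, and 92.8% in NC, with 92.7 to 92.9%. miR-148b took 6.62% in HC (6.49 to 6.75%) and 5.03% in NC (4.93 to 5.12%), and miR-152 took 2.52% in HC and 2.15% in NC. miR-148a therefore supplied over 9 in 10 of the family's precursor counts in each library. The seed is shared by the 3p arms, and the counts do not separate the arms.

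**Figure D2:**
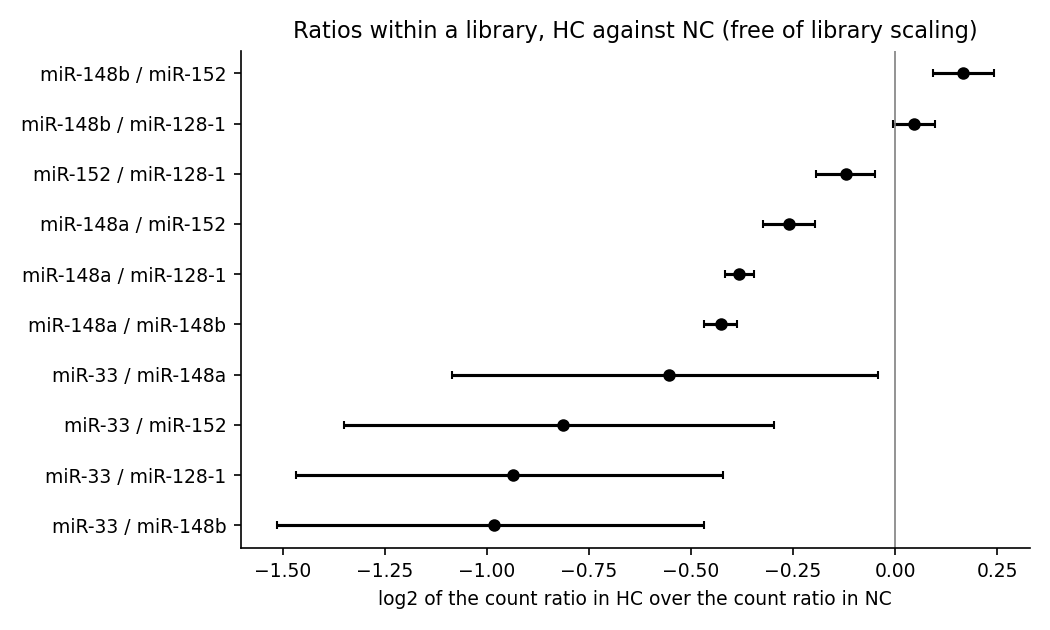
Log2 of the count ratio of one precursor to another in HC over the same ratio in NC, with 95% counting intervals; each row is a pair, read as first over second, for 10 of the 21 pairs (pairs with miR-122 or miR-128-2 are left out). Ratios with miR-148a or miR-33 on top lie below 0, miR-148b over miR-152 lies above 0, and the interval of miR-148b over miR-128-1 holds 0.

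miR-128 was slightly higher in HC in both copies. miR-128-1 had 13764 counts in HC and 15465 in NC, with a log2 fold of 0.19 (0.16 to 0.22). miR-128-2 had 10118 counts in HC and 11361 in NC, also with a log2 fold of 0.19 (0.15 to 0.23). The sum of the copies lay at 0.32 with plain totals and at 0.077 with the authors' denominators. The counts of the copies were not equal, but their ratio was: miR-128-1 exceeded miR-128-2 by 1.36 times (1.33 to 1.40) in HC and by 1.36 times (1.33 to 1.39) in NC. These intervals treat the counts of the copies as separate reads, which does not hold for reads counted at both. Among the 196 compared precursors matched to RefSeq, 24 pairs share an identical mature arm. Of these pairs, 10 had counts within 2% of each other in both libraries, and 3 reached a ratio of 1.3 in both, namely miR-92a-1 with miR-92a-2, miR-128-1 with miR-128-2 and miR-196a-2 with miR-196a-1. For 22 of the 24 pairs the log2 ratio differed by under 0.05 between the libraries. The 24, the 10 and the 22 all include miR-30e with miR-30f and miR-451a with miR-451b. The entries of each of these pairs are listed at the same coordinates and so hold the same counts. Since the copies share their 3p sequence, their folds are not separate evidence on miR-128.

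Against miR-148a, miR-128 moved the other way: the ratio of miR-148a to miR-128-1 was 9.64 in HC (9.47 to 9.81) and 12.6 in NC (12.3 to 12.8), a log2 difference of -0.38 (-0.42 to -0.35). Against miR-148b no difference was detectable at this depth, with a ratio of miR-148b to miR-128-1 of 0.702 in HC and 0.680 in NC and a log2 difference of 0.05 (-0.01 to 0.10). The miR-27 precursors, whose sequences hold the miR-128 seed, had log2 folds of 0.09 for miR-27a (828 CPM in HC, 780 CPM in NC) and -0.05 for miR-27b (12665 CPM in HC, 13143 CPM in NC). miR-128 is enriched in brain, and the fixed neuron markers are given beside it. All 6 were detected in both libraries: they summed to 16.9 CPM in HC and 27.4 CPM in NC, with 22 counts each in HC and 34 or 35 in NC for the miR-124 copies, and 162 counts each in HC and 347 or 348 in NC for the miR-9 copies. For miR-9-1 the log2 fold was -0.74 (-1.02 to -0.47), and its copies gave nearly the same value. For miR-124-1 it was -0.27, with an interval from -1.11 to 0.54 that holds equality, as do those of its copies. The fixed markers of oligodendrocytes and Schwann cells summed to 206.8 CPM in HC and 215.3 CPM in NC, a log2 fold of -0.06. Most of this was miR-338, with 204.8 CPM in HC and 212.7 CPM in NC. The part of nerve tissue in the miR-128 level was not tested.

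All 5 compared precursors had an interval off equality, as did 83.3% of the 222 compared precursors, so that count says little about these miRNAs. Of the 5, 4 (from 3 distinct miRNAs) lay above equality, where 39.6% of compared precursors did, and 1 lay below, where 43.7% did. These shares rest on the scaling: 88 of the 222 lay above and 97 below with TMM, 135 above and 47 below with plain totals, and 55 above and 131 below with the authors' denominators. The 4 above and 1 below among the 5 stayed so with plain totals, and with the authors' denominators 3 lay above, 1 below and miR-152 at -0.044 held equality. None of the 5 reached 1.5-fold, which 7.21% of compared precursors did in either direction, and none reached 2-fold, which 2.25% did. The log2 folds of the 5 ran from -0.19 to 0.23, while the central 90% of all compared precursors ran from -0.47 to 0.47. Their median was 0.19, against 0.00 over all compared precursors, a value carried by the copies of miR-128. In the order of the 222 log2 folds, miR-148b stood 37th from the top and miR-148a 48th from the bottom. In size, these differences are common ones in this pair of libraries.

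**Figure D3:**
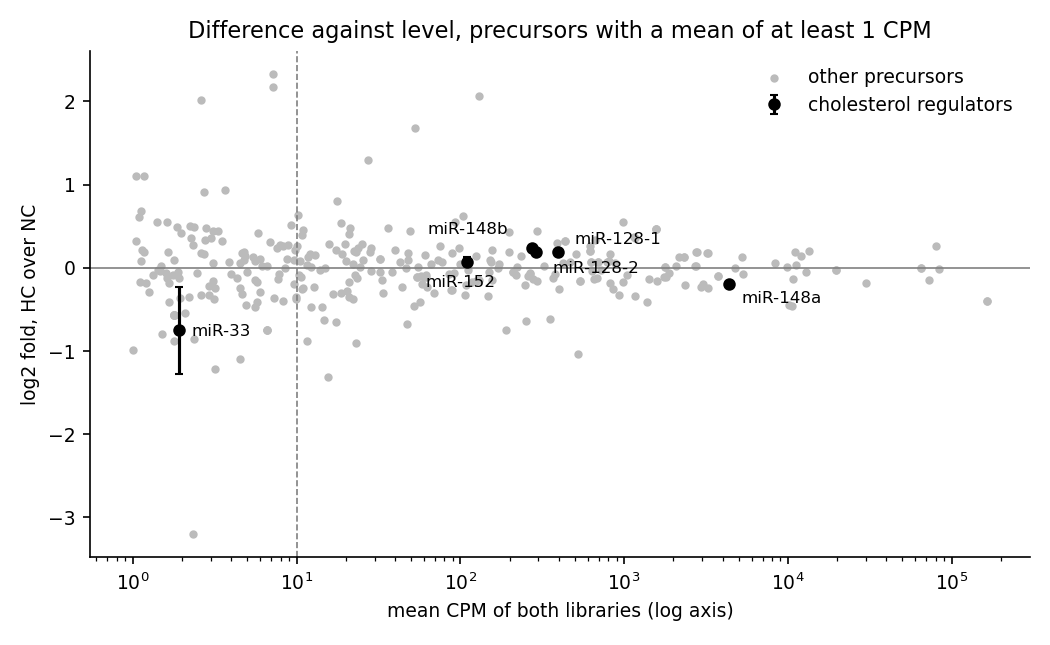
Log2 fold of HC over NC against the mean CPM of both libraries (log axis) for precursors averaging 1 CPM or more; black points are the cholesterol regulators with 95% counting intervals, grey points the others, and the dashed line marks 10 CPM. The 5 compared regulators lie close to 0 inside the cloud, and miR-33 lies at -0.75 among more scattered low-count precursors.

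miR-33, the regulator of cholesterol efflux, was scarce, and its count was lower in HC. It had 47 counts in HC and 101 in NC, or 1.44 CPM (1.06 to 1.91) in HC and 2.41 CPM (1.97 to 2.93) in NC. The log2 fold was -0.75 (-1.28 to -0.23), and NC exceeded HC by 1.68 times (1.18 to 2.43). In the band from 1 to under 10 CPM, which held 113 precursors, 9.73% were likewise at least 1.5-fold lower in HC with an interval below equality, and miR-33 was 8th from the bottom of their log2 folds. The interval stayed below 0 under all 5 scalings, with log2 folds between -0.86 and -0.61. Set against miR-148a inside each library, which needs no scaling, the log2 difference was -0.55 (-1.09 to -0.04), and against miR-148b it was -0.98 (-1.51 to -0.47). miR-33 ranked 311th of the 1187 precursors in HC and 289th in NC.

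miR-122, the liver miRNA, was close to the limit of detection, with 7 counts in HC and 9 in NC. This corresponds to 0.214 CPM (0.0861 to 0.441) in HC and 0.215 CPM (0.0983 to 0.408) in NC. The log2 fold was -0.01 with an interval from -1.67 to 1.59, which allows a 3.01-fold higher as well as a 3.17-fold lower level in HC. The other fixed liver markers were more abundant in both libraries than this, with 783.7 CPM in HC and 933.8 CPM in NC for miR-192, a log2 fold of -0.25 (-0.28 to -0.23). The miR-194 copies lay at -0.35 and -0.38. Which tissue or cells the counts of miR-122, miR-192 and miR-194 came from was not tested.

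**Figure D4:**
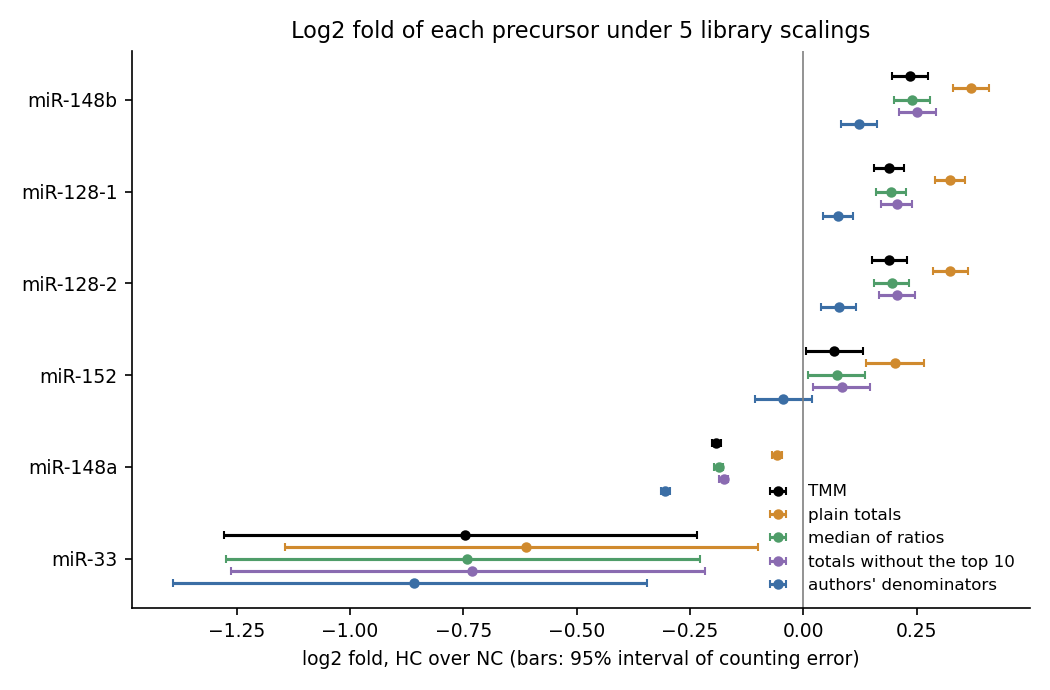
Log2 fold of HC over NC of 6 precursors under 5 ways of scaling the libraries, with 95% counting intervals; each colour is a scaling. miR-148b and both miR-128 copies stay above 0, miR-148a and miR-33 stay below 0, and miR-152 crosses 0 with the authors' denominators.

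By their nearest neighbours in level over the 2 libraries, these miRNAs resembled others as follows. The members described here were left out of the search, so only other precursors could be named. The distance is Euclidean over the log2 CPM of both libraries, and with 2 libraries it describes level and fold only. miR-148a was nearest to miR-101a (distance 0.03; 4101 CPM in HC and 4730 CPM in NC) and then to miR-30d (0.24). miR-152 was nearest to miR-221 (0.08) and miR-328 (0.19), and miR-128-1 to miR-196a-1 (0.06) and miR-541 (0.09). Among these other precursors, miR-148b was nearest to miR-223 (0.20) and miR-145a (0.21). The same pair was nearest to miR-128-2 (0.18 for miR-223 and 0.24 for miR-145a). miR-148b (295.5 CPM in HC, 251.1 CPM in NC) and miR-128-2 (309.6 and 271.4 CPM) lay closer to each other than to that pair. miR-223, itself a myeloid marker, had a larger log2 fold, 0.44, than either. The miRNAs fixed as myeloid markers, miR-223 and miR-142a, together had 2124 CPM in HC and 2022 CPM in NC. Most of this was miR-142a, with 1784 CPM in HC and 1771 CPM in NC. Its log2 fold was 0.01 (-0.01 to 0.03), so it did not share the difference of miR-223. The lymphocyte marker miR-150 had 141.6 CPM in HC and 237.6 CPM in NC. In whole muscle, fewer cells of a type and less RNA per cell cannot be told apart, and the part of these cells in the values above was not tested.

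Other miRNAs known to act on the same lipid genes were compared as 3 lists, with the 7 members left out. The efflux list, miRNAs directed at Abca1 or Abcg1, had 13 of 16 precursors compared, with copies counted separately here and in the lists that follow. Of the 13, 3 had intervals above equality and 8 below it, where 39.6% and 43.7% of all compared precursors did. With plain totals these counts turned round, to 9 above and 2 below, where 135 and 47 of all 222 compared precursors lay. The median log2 fold was -0.02, which was 0.11 with plain totals. One of them passed 1.5-fold, as 7.21% of all compared precursors did: miR-144, with 125.4 CPM in HC and 81.8 CPM in NC (log2 fold 0.62). With the authors' denominators miR-144 lay at 0.50 (0.44 to 0.57), short of 1.5-fold. miR-144 is also an erythrocyte marker, and its partner in that list, miR-451a, had 483 CPM in HC and 386 CPM in NC.

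The list for Scarb1, the HDL receptor, had 4 of 7 precursors compared, 3 with intervals above equality (39.6% of all compared) and 1 below (43.7%). With the authors' denominators 1 lay above and 3 below, where 55 and 131 of all 222 compared precursors lay. The list's median of 0.07 became -0.039 with these denominators. Its most abundant members were miR-125a at -0.19, miR-24 at 0.07 in both copies and miR-223 at 0.44. The copies of miR-24, which make up 2 of the 3 above, turned to -0.039 and -0.040 with the authors' denominators. The list of lipid synthesis, SREBP and lipoprotein secretion had 10 of 14 compared, 1 with its interval above and 8 below equality, beside the same 39.6% and 43.7%. The 8 include both copies of miR-30c and of miR-103. With plain totals 4 lay above and 3 below, where 135 and 47 of the 222 did. The median was -0.14, or -0.0027 with plain totals. Past 1.5-fold, where 7.21% of all compared precursors lay, were miR-182 and miR-183, products of 1 cluster that SREBP2 is known to switch on. miR-182 had 277.6 CPM in HC and 423.6 CPM in NC (log2 fold -0.61), and miR-183 had 36.4 CPM in HC and 58.2 CPM in NC (-0.68). With plain totals both fell short of 1.5-fold, at -0.48 for miR-182 and -0.54 for miR-183. The third miRNA of that cluster, miR-96, had 20 counts in HC and 32 in NC, an interval of log2 fold from -1.20 to 0.53. This cluster is also expressed in epithelium, and the fixed epithelial markers summed to 124.9 CPM in HC and 164.6 CPM in NC. The part of epithelium in these values was not tested. Over the 3 lists, 27 of 35 distinct precursors were compared, 7 with intervals above and 17 below equality, beside the same 39.6% and 43.7%. Their median was -0.05, and 3 passed 1.5-fold, as 7.21% of all compared precursors did. Plain totals turned that balance to 16 above and 6 below, where 135 and 47 of all 222 compared precursors lay. The authors' denominators gave 2 above and 23 below, where 55 and 131 of the 222 lay. The lists' direction thus depends on the scaling, as does that of all compared precursors.

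**Figure D5:**
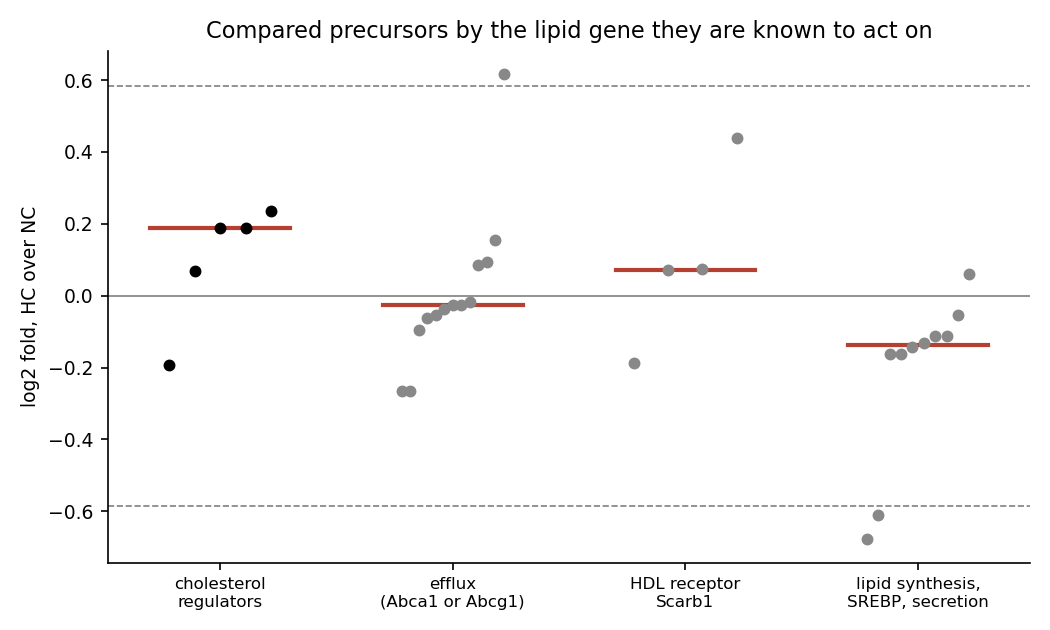
Log2 fold of HC over NC for compared precursors, grouped as the cholesterol regulators described here (black) and 3 lists of other miRNAs by the lipid gene they are known to act on (grey); red bars are medians and dashed lines mark 1.5-fold. With TMM scaling, the 3 precursors beyond the dashed lines are miR-144 above and miR-182 and miR-183 below.

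To show where the seeds could pair, the 3′ UTRs of 11 genes of cholesterol and fatty acid handling were searched on the sense strand for the 7 letters complementary to each seed. The letters were CAATGCA for miR-33-5p, TGCACTG for the miR-148 family and CACTGTG for miR-128-3p. The longest annotated 3′ UTR of each coding gene was used, and no messenger RNA was measured. Over all 21020 coding genes with a 3′ UTR, 7.12% held the miR-33 letters, 12.7% those of the miR-148 family and 18.9% those of miR-128. Of the 11 genes, 5 held miR-33 letters, 4 held miR-148 letters and 2 held miR-128 letters. The genes were picked by hand and include Abca1 and genes of fatty acid oxidation, which were known as miR-33 targets before. Set beside the shares, here or for single genes below, these matches therefore do not measure enrichment. A match is a description of letters and not a site.

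Abca1, the exporter that loads cholesterol onto nascent HDL, held letters for all 3 seeds in a 3′ UTR of 3156 bases. Among 2513 other 3′ UTRs at least as long, each cut to its first 3156 bases, 15.7% held the miR-33 letters, 26.3% the miR-148 letters and 38.5% the miR-128 letters. The 3 miR-33 matches lie within 22 bases, and the first and the second overlap. One of the 2 miR-148 matches overlaps the only miR-128 match by 5 letters near the start of the UTR. Both stretches are shown with the matches in capitals, on the minus strand of GRCm38:
Abca1, miR-33 (chr4:53033783-53033812): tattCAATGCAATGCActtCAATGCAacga
Abca1, miR-148 and miR-128 (chr4:53033877-53033893): ccttTGCACTGTGtcaa

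Abcg1, an exporter of cholesterol to mature HDL, held the miR-33 letters 2 times, where 18.5% of 3′ UTR stretches of that length hold them. The stretch is shown because the miR-33 letters are repeated within a few bases, as in Abca1, with the matches in capitals:
Abcg1, miR-33 (chr17:31114998-31115022, plus strand): aacgCAATGCAacgCAATGCAgaca

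The fatty acid oxidation genes Cpt1a, Crot and Hadhb each held the miR-33 letters once, where 9.67%, 4.17% and 2.51% of stretches of their lengths do. Hadhb (5.90%), Insig1 (16.5%) and Srebf1 (8.84%) each held the miR-148 letters once, and Insig1 (25.1%) held the miR-128 letters once. Srebf2, the host gene of miR-33, held none of the 3 motifs, and the same was found for Npc1, Hmgcs1 and Scarb1. The letters for miR-148a, miR-148b and miR-152 are the same, so these windows do not separate the member that was lower in HC from those that were not.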

How the data were processed

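Hindlimb muscle of 1 HC and 1 NC library was compared, grouped by phenotype. Per the submitters' processing notes, CASAVA 1.8.2, TopHat2 2.0.10 and HTSeq 0.5.4 were used with mm10. The sources used here do not give which annotation served or how adapters were treated, and hold no statement on multiply aligned reads. The deposited summary rows for ambiguous and for not uniquely aligned reads held 0 in both libraries. The overlapping precursors miR-486a and miR-486b each had 4626450 counts in HC and 7839973 in NC. Their reads thus entered both counts, and the library totals hold them more than once. Copies such as miR-26a-1 (635506 in HC) and miR-26a-2 (635101 in HC) were also nearly equal. Deposited files hold whole-number counts per precursor, per the file headers, and 5 summary rows that stayed out of library sizes (counts outside precursors were 55.95% of listed counts in HC and 44.14% in NC). A deposited signal column, called RPM by the authors, was a constant multiple of the counts but summed to over 1000000, and served only as an alternative scaling.

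Counts were scaled by TMM (edgeR 4.0.16, R 4.3.3). The log2 fold is HC over NC per scaled library size, with no pseudocount and an exact conditional binomial interval; ratios between members have exact conditional odds ratio intervals (scipy 1.17.1), and shares exact Clopper-Pearson intervals. Reads carry no molecular identifiers, so intervals cover counting error only. No p-value was computed, since there are no replicates. A precursor was compared at a mean of at least 10 CPM; no fold was formed where both libraries had at most 3 counts. Named were all members, and list members past 1.5-fold or otherwise the 3 most abundant (copies as 1). For each compared member, the 2 nearest precursors by level were also named, with all members left out of that search. miR-124, fixed under its older name miR-124a, was taken under the name in the files. Alternatives were plain totals, DESeq2 1.42.0 size factors, the authors' denominators, totals without the 10 most abundant precursors, other level limits and summed copies. Members and lists were chosen with earlier results of these data known. Host genes and 3′ UTRs came from GENCODE M21, mature sequences from RefSeq. The fold and its interval were tried on simulated counts that held counting error alone, with the library sizes given. The scaling, the spread between animals and shared reads were not tested by it. Some items of the fixed lists are not reported here.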

Additional observations from a re-analysis of the deposited data

Results flagged for a closer look

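Counts outside all precursors took 55.95% of the listed counts in HC and 44.14% in NC (exact intervals 55.94 to 55.96% and 44.13 to 44.15%). They enter none of the comparisons above and are given because the share in HC was above that of the control. Their part in the values of the 7 members was not tested, and the ratios between members within a library, such as miR-148a to miR-148b, do not use them.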

How the results depend on the processing

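No paired analysis was possible because each group holds 1 library. Relative to TMM, plain totals shift every log2 fold by 0.13, the authors' denominators by -0.11, totals without the top 10 by 0.02 and median-of-ratios size factors by 0.01; ratios within a library are unaffected, and with the mean of both miR-128 copies they moved by less than their intervals. With plain totals the log2 folds were -0.058 for miR-148a, 0.37 for miR-148b, 0.20 for miR-152, 0.32 for each miR-128 copy and for their sum (0.32), and -0.027 for the summed miR-148 family. With the authors' denominators they were -0.30 for miR-148a, 0.12 for miR-148b, 0.076 for miR-128-1, 0.077 for miR-128-2, 0.077 for the summed copies and -0.27 for the summed family, and miR-152 turned to -0.044 (-0.11 to 0.02). Totals without the top 10 gave -0.18 for miR-148a and -0.15 for the family, and the family's median, 0.068, has the sign opposite to its sum. miR-33 and miR-122 moved by less than their intervals under all 4 alternative scalings.

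Plain totals put 135 compared precursors above and 47 below equality, against 88 and 97 with TMM, and 55 lay above with the authors' denominators. Past 1.5-fold, the 6 higher and 10 lower precursors became 14 and 5 with plain totals, 28 and 31 with no filter, 14 and 21 above a limit of 1 CPM, and 3 and 4 at 50 CPM. Past 2-fold, the 3 higher and 2 lower became 20 and 15 with no filter and 8 and 5 at 1 CPM, while 1 was lower with plain totals and 1 at 50 CPM. List medians with plain totals were 0.11 (efflux), 0.21 (Scarb1) and -0.0027 (lipid synthesis), and with the authors' denominators -0.14, -0.039 and -0.25, where the miR-24 copies turned to -0.039 and -0.040. The scalings of single list precursors and of the counts of lists and members were added after seeing the data. Beyond these shifts, the cause was not tested. Depth limits miR-33 and miR-122 most. The limit of 3 counts used for forming a fold corresponds to 0.0918 CPM in HC and 0.0717 CPM in NC.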
